A study of Rattus norvegicus with 28 samples.

Results

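The cytochrome P450 families 2, 3 and 4 are described here in primary hepatocytes of 2 adult female Sprague-Dawley rats, named animal A and animal B. The members were all non-control array probes whose gene name begins with Cyp, then 2, 3 or 4, then a letter, and the brightest probe stood for each gene name. This gave 35 gene names from 40 probes, of 34849 gene names tested in all, and all 35 passed the filter on dim probes. All 35 names matched a rat gene of these families in RefSeq. Of these, 20 bore another name on the array than the present symbol, often a mouse name (Cyp4a12 for Cyp4a8, Cyp2c70 for Cyp2c22), and present symbols are used below.

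The hepatocytes were cultured on Matrigel with insulin, transferrin, selenium and 0.1 µM dexamethasone for 48 h and then treated for 24 h. The 7 groups were untreated hepatocytes; 0.01 and 1 nM 2,3,7,8-TCDD; 0.1 and 10 nM 2,3,7,8-TCDF; and 0.02 and 2 nM 2,3,4,7,8-PeCDF, all agents in 0.1% DMSO. Every group had 4 two-colour Agilent arrays, which were a dye-swapped pair for each animal, and RNA from 3 dishes of 1 animal was pooled for each hybridisation. Each array set a group against DMSO-treated hepatocytes of the same animal. The labels do not say whether the DMSO RNA of an animal was 1 preparation used on all its arrays. All groups, controls included, had dexamethasone, itself a known inducer of Cyp3a genes. TCDD, TCDF and PeCDF are chlorinated aromatic compounds that bind the aryl hydrocarbon receptor (AHR). The replicate is the animal (n = 2 for every estimate, except 1 for Cyp4f1 with 2 nM PeCDF), and where SE is given it is that of the limma estimate, with the spread shared over all groups.

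P450 enzymes are heme proteins of the endoplasmic reticulum that insert oxygen into drugs, steroids, retinoids and fatty acids, with electrons from P450 reductase (Por) and cytochrome b5. The textbook targets of the AHR are the Cyp1 genes. In families 2 to 4, the nuclear receptors CAR and PXR are known to induce Cyp2b, several Cyp2c and Cyp3a genes, PPARA is known to induce Cyp4a genes, and the pattern of growth hormone secretion gives rat liver a set of sex-dependent P450s, such as Cyp2c11 and Cyp3a18 in males and Cyp2c12 and Cyp2a1 in females.

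As a check of the cells, 13 of 13 measured hepatocyte markers were above the negative control spots on all 4 untreated arrays, and their summed net intensity there was 466000 to 586000. The same sum was 9580 to 15900 for 14 Kupffer cell and leukocyte markers, 2890 to 3800 for 11 stellate cell and fibroblast markers, 1790 to 2650 for 8 bile duct markers and 785 to 1440 for 8 endothelial markers, of which 5 were above the negative controls on all 4 arrays. With 1 nM TCDD, 1 hepatocyte marker rose and 3 fell, 1 Kupffer cell or leukocyte marker rose and 5 fell, 2 stellate or fibroblast markers and 2 bile duct markers fell, and no endothelial marker was called, where 10.6% of all gene names were called. The summed levels of the 5 lists there were 400000 to 617000, 8350 to 17200, 2160 to 3820, 1130 to 2140 and 618 to 1760. The part of such cells in the results below was not tested, and in bulk RNA fewer cells of a type and less RNA per cell cannot be told apart. By the recorded dates of image extraction, the arrays fell into 2 extraction sessions. One held the untreated and TCDD arrays and the other the TCDF and PeCDF arrays, so compound and session cannot be told apart when TCDD is set against a furan. Within each session the extraction day went with the dye orientation. Among known AHR targets, all 8 measured rose at 1 nM TCDD, Cyp1b1 by 3.93 on the log2 scale (SE 0.15), and 5 and 6 of them passed with 10 nM TCDF and 2 nM PeCDF.

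With 1 nM TCDD, 14 of the 35 P450 genes passed an adjusted p of 0.05, 12 lower and 2 higher, where 10.6% of all gene names were called (5.92% lower and 4.63% higher). Those that fell came from every one of the main subfamilies except Cyp2a and Cyp2d: Cyp2b3 and Cyp2b12; Cyp2c6v1, Cyp2c22, Cyp2c11, Cyp2c23 and Cyp2c13; Cyp2j4; Cyp3a18; Cyp4a8 and Cyp4a3; and Cyp4f4. The 2 that rose were both Cyp2a genes, Cyp2a1 and Cyp2a2. At 10 nM TCDF 5 members were called, 4 lower and 1 higher, where 2.36% of all gene names were called (1.26% lower and 1.11% higher). At 2 nM PeCDF 6 were called, 5 lower and 1 higher, where 4.39% were (2.67% lower and 1.72% higher), and 1 of the 6, Cyp4f1, rests on animal A alone. Without animal A the counts were 11 with TCDD, 1 with TCDF and 1 with PeCDF, where 11.2%, 0.184% and 0.394% of all gene names were called. Without animal B they were 10, 2 and 2, where 4.58%, 0.747% and 1.89% were. In all 3 upper-dose groups Cyp2b3, Cyp2b12, Cyp2c6v1 and Cyp4f4 fell and Cyp2a1 rose. The median log2 ratio of the 35 genes was -0.12 with TCDD, -0.07 with TCDF and -0.08 with PeCDF, beside -0.001, 0.002 and -0.001 over all gene names.

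**Figure D1:**
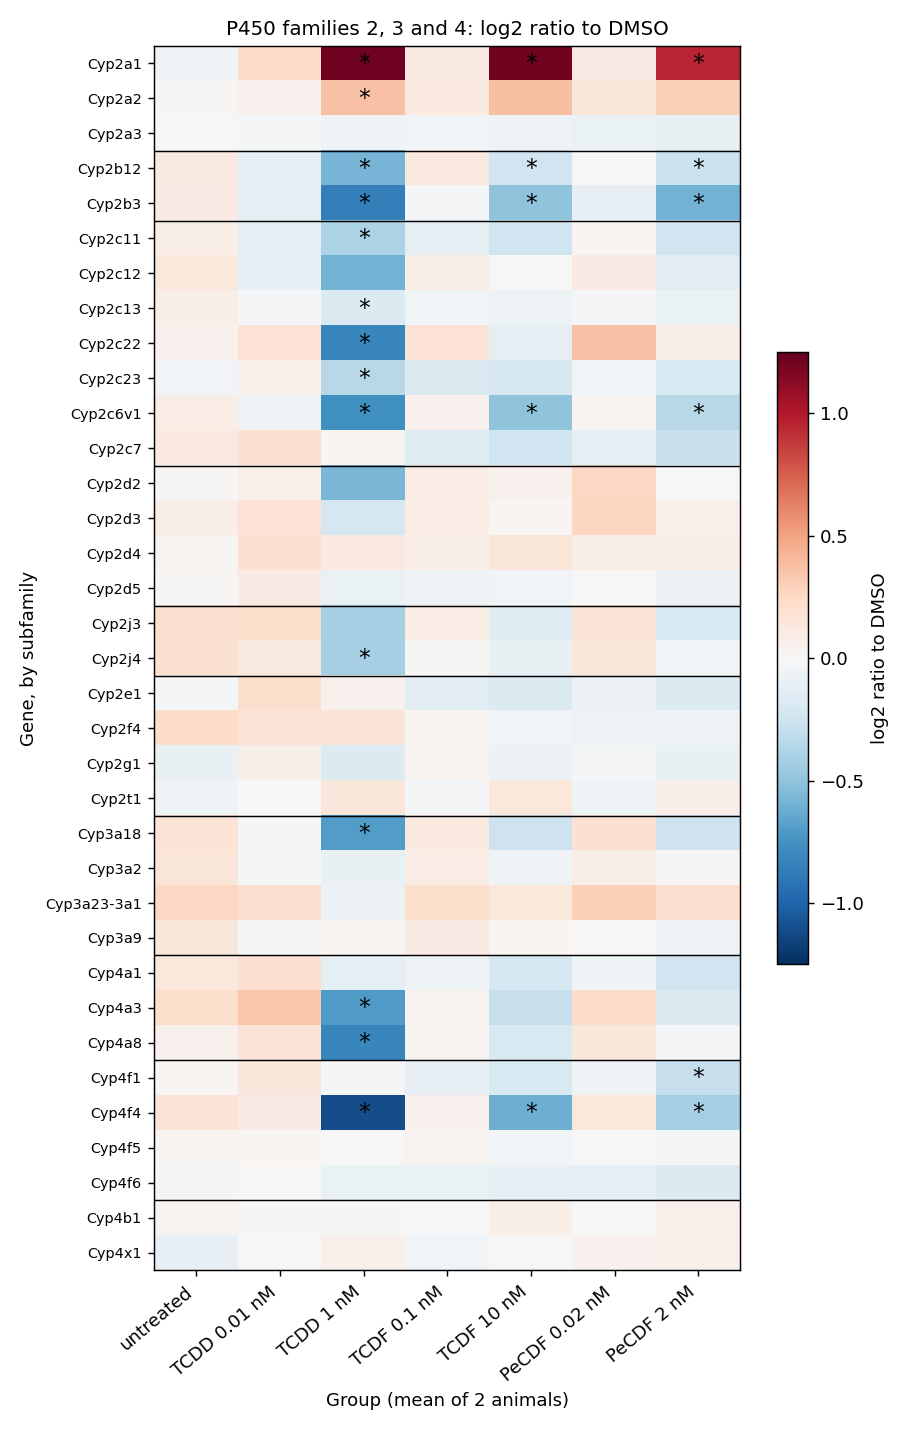
Log2 ratio to DMSO (colour) of the 35 P450 genes (rows, by subfamily) in the 7 groups (columns), as the mean of 2 animals. An asterisk marks an adjusted p under 0.05; the 25 asterisks lie in the 3 upper-dose columns, 14 with 1 nM TCDD, 5 with 10 nM TCDF and 6 with 2 nM PeCDF.

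RefSeq promoter windows on the GRCr8 build were found for 31 of the 35 genes. Of these windows 4 are shown, without the bases after the annotated start: the 3 genes called at every upper dose whose window was in the table, and Cyp4f1, the only called member whose window held the letters GCGTG, the core of the site that the AHR and ARNT bind. Each run is the 250 bases before the start, 5′ to 3′ on the gene's own strand. Capitals mark GCGTG, or CACGC where it lies on the other strand, and AGGTCA, the half-site of many nuclear receptors, on either strand.

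Cyp2a1 (chr1:91359028-91359277, forward strand): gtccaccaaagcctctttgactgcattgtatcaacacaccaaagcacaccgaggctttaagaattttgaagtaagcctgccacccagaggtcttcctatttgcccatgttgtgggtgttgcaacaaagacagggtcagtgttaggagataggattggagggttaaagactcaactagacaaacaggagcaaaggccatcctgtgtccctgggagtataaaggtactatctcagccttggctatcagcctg
Cyp2b3 (chr1:90780242-90780491, forward strand): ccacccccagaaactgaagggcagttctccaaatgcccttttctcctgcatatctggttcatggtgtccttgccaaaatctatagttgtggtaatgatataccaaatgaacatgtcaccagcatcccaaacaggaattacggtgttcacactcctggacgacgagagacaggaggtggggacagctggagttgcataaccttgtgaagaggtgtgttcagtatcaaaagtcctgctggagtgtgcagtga
Cyp2b12 (chr1:91135044-91135293, forward strand): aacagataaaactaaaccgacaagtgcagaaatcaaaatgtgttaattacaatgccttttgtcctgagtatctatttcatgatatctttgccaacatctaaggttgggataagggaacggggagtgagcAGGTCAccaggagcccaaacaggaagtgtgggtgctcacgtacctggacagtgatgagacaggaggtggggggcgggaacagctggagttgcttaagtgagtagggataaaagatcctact
Cyp4f1 (chr7:12672554-12672803, reverse strand): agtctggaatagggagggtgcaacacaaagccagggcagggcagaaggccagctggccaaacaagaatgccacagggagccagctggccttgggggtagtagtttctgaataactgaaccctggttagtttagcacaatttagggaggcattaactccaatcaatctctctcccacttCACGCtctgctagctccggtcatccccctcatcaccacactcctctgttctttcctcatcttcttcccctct

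The window of Cyp2a1, which rose at every upper dose, and that of Cyp2b3, which fell at every upper dose, held neither motif. The window of Cyp2b12 held 1 AGGTCA and that of Cyp4f1 held 1 GCGTG on the other strand. The windows of Cyp2b3 and Cyp2b12 were identical at 60.4% of aligned columns, and each of the other 5 pairs among these genes at 44.1% to 50.7%. Over all 31 windows, 5 (16.1%) held GCGTG on either strand, those of Cyp2t1, Cyp4f1, Cyp4f5, Cyp4f6 and Cyp4x1, where 25.9% of all 33469 windows of this length did. AGGTCA was found in 8 windows (25.8%) and in 14.1% of all windows. A match describes these letters in this stretch only and does not locate a bound site.

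Genes that moved in opposite directions lie in 1 cluster on chromosome 1. The annotated start of Cyp2b3 lies 578.8 kb before that of Cyp2a1 and the start of Cyp2b12 224.0 kb before it, all on the forward strand. Of the members with a window, Cyp2g1 and Cyp2a3 lie between Cyp2b12 and Cyp2a1, and Cyp2f4 and Cyp2t1 follow at 184.5 and 216.2 kb. Cyp2a2, which had no window, and genes that are no members were not placed. At 1 nM TCDD these 4 neighbours were not called, with log2 ratios of -0.17 for Cyp2g1, -0.06 for Cyp2a3, 0.16 for Cyp2f4 and 0.14 for Cyp2t1.

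Cyp2a1, a steroid hydroxylase that is more abundant in female rat liver, was the only member that rose at all 3 upper doses. With 1 nM TCDD its log2 ratio was 1.68 and 1.72 on the 2 arrays of animal A and 0.71 and 0.74 on those of animal B. With 10 nM TCDF the values were 1.07 and 1.11 for animal A and 1.30 and 1.34 for animal B. With 2 nM PeCDF they were 0.93 and 0.94 for animal A and 0.96 and 0.98 for animal B. All 12 of these arrays were above the 16 arrays of the untreated and lower-dose groups, which lay between -0.23 and 0.47. The estimates were 1.21 (SE 0.21, 2.32-fold, adjusted p = 0.0042), 1.20 (adjusted p = 0.016) and 0.95 (adjusted p = 0.031) in limma's moderated test. The animals differed most with TCDD, by 0.97 on the log2 scale, with animal A higher, and the TCDD estimate without animal A was 0.73 (adjusted p = 0.055). Both furan calls were lost without either animal, with estimates of 1.09 and 1.32 for TCDF and 0.94 and 0.97 for PeCDF, and the PeCDF call also without background correction (0.89).

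The male-predominant Cyp2a2 followed at a lower level of signal. Its 4 ratios with 1 nM TCDD were 0.42, 0.49, 0.25 and 0.29, for an estimate of 0.36 (SE 0.09, adjusted p = 0.024). The estimates with TCDF and PeCDF were 0.37 and 0.29, and neither passed the test. Cyp2a2 was dim, with a net DMSO intensity of 34.6 to 79.1, and it was above the negative controls in 26 of 28 DMSO channels. Its TCDD estimate was 0.65 with the scanner's own log ratio and 0.10 without background correction, where the call was lost, as it was without animal A (0.27) or animal B (0.46). Cyp2a3, a gene of lung and nasal tissue, was at -0.06, -0.06 and -0.09 at the 3 upper doses and was not called. Near-identical Cyp2a transcripts may share signal on these probes, whose sequences were not used here. The same limit holds for the Cyp2b, Cyp2c and Cyp4a genes below.

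Both Cyp2b members fell at every upper dose. Cyp2b3, a liver gene of the phenobarbital-inducible subfamily that is known not to respond to phenobarbital, had log2 ratios of -0.92, -0.86, -0.88 and -0.78 on the 4 arrays with 1 nM TCDD. With 10 nM TCDF they were -0.55, -0.52, -0.49 and -0.44, and with 2 nM PeCDF -0.70, -0.68, -0.50 and -0.48. Every upper-dose array was below every untreated and lower-dose array, which spanned -0.14 to 0.16, and the TCDD arrays did not overlap those of either furan. The estimates were -0.86 with TCDD (SE 0.05, adjusted p = 5.6e-06), -0.50 with TCDF (adjusted p = 0.00067) and -0.59 with PeCDF (adjusted p = 0.00031). Cyp2b3 had the smallest adjusted p of the 35 members in each of these 3 comparisons.

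Cyp2b12, known from sebaceous glands and named Cyp2b15 on the array, fell less. Its ratios were -0.73, -0.54, -0.66 and -0.41 with TCDD, -0.19, -0.28, -0.32 and -0.18 with TCDF, and -0.39, -0.29, -0.26 and -0.12 with PeCDF. Only the TCDD arrays lay wholly below the 16 untreated and lower-dose arrays, whose lowest value was -0.20. The estimates were -0.58 (SE 0.05, adjusted p = 5.4e-05), -0.24 (adjusted p = 0.029) and -0.27 (adjusted p = 0.013). Without background correction the TCDD estimate was -0.37, still called, and the PeCDF estimate was -0.19, not called. The PeCDF call was also lost without animal A (-0.19), and the TCDF call without either animal and when the furan groups were fitted alone. The genes Cyp2b2 and Cyp2b21, which the array carries under locus numbers and which are therefore no members, were also called lower in all 3 groups: Cyp2b2, a phenobarbital-inducible gene, was at -0.42, -0.28 and -0.33 and Cyp2b21 at -0.67, -0.29 and -0.28. No probe on the array was named Cyp2b1.

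Of the 7 Cyp2c genes, 5 fell with 1 nM TCDD, and 1 fell with each furan. Cyp2c6v1, a constitutive and phenobarbital-inducible liver enzyme of both sexes, fell in all 3 groups. Its ratios were -0.56, -0.67, -0.91 and -0.95 with TCDD, -0.47, -0.43, -0.50 and -0.60 with TCDF, and -0.18, -0.24, -0.48 and -0.49 with PeCDF. All of them were below the 16 other arrays, which reached no lower than -0.16. The estimates were -0.77 (SE 0.08, adjusted p = 0.00027), -0.50 (adjusted p = 0.013) and -0.35 (adjusted p = 0.042). The PeCDF call was lost under several other settings, among them the scanner's own log ratio and leaving out either animal (-0.21 without B and -0.48 without A), and the TCDF call was lost without either animal.

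**Figure D2:**
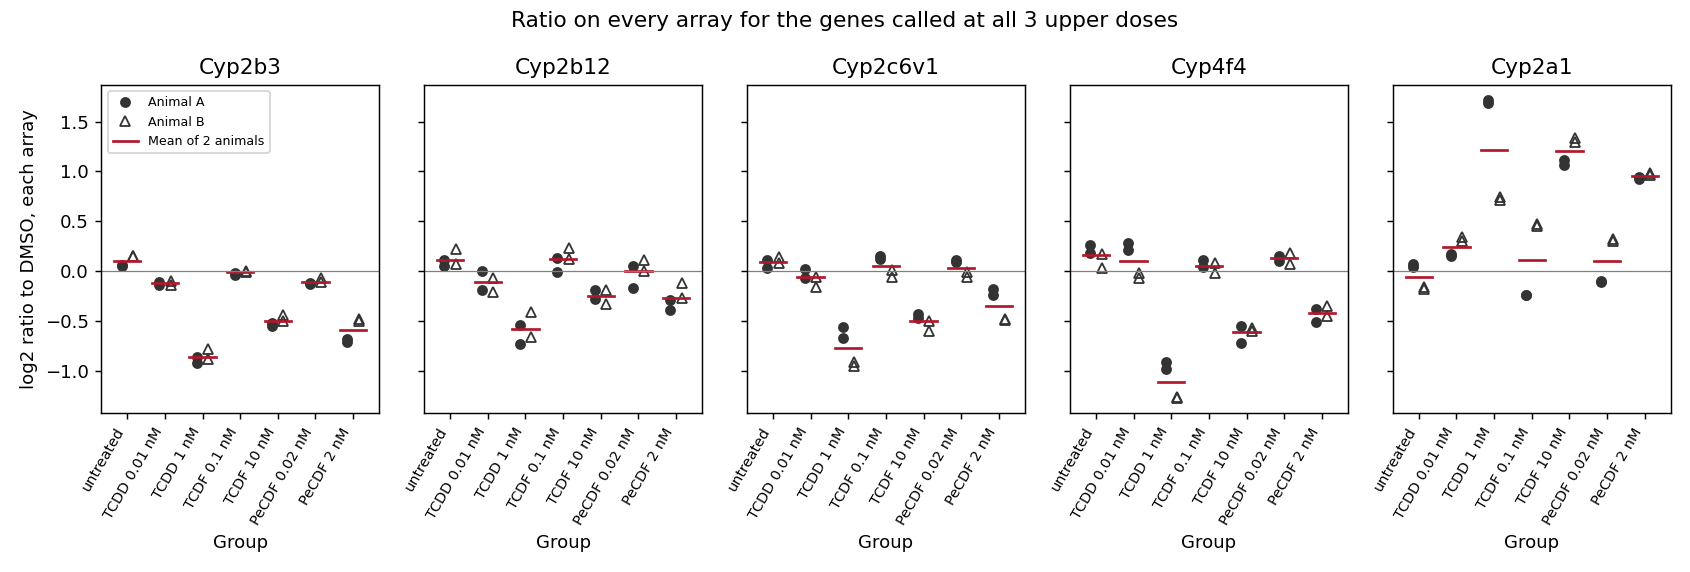
Log2 ratio to DMSO (y axis) on each of the 4 arrays of every group (x axis) for the 5 genes called at all 3 upper doses; filled circles are animal A, open triangles animal B and bars the mean of the 2 animals. Cyp2b3, Cyp2b12, Cyp2c6v1 and Cyp4f4 lie below 0 and Cyp2a1 above 0 on every upper-dose array, and the 2 animals lie furthest apart for Cyp2a1 with 1 nM TCDD.

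Cyp2c22, which hydroxylates retinoic acid, was the only other Cyp2c gene with a large ratio that passed the test. At 1 nM TCDD it was at -0.35 and -0.48 in animal A and at -1.15 and -1.28 in animal B, for an estimate of -0.81 (SE 0.16, adjusted p = 0.010). The furan estimates were -0.12 and 0.08 and the furan arrays overlapped those of the lower doses. Without animal B the TCDD value was -0.41 and was not called (adjusted p = 0.21), and 1 of its 28 treated channels was saturated.

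The male-predominant Cyp2c11 was at -0.41, -0.35, -0.43 and -0.39 with TCDD (estimate -0.40, SE 0.08, adjusted p = 0.014), beyond the lowest of the untreated and lower-dose arrays, -0.32. The male-predominant Cyp2c13 moved little, with -0.17, -0.18, -0.19 and -0.16 (estimate -0.18, SE 0.04, adjusted p = 0.011). Cyp2c23, an arachidonic acid epoxygenase of kidney and liver, was at -0.29, -0.10, -0.62 and -0.38 (estimate -0.35, SE 0.10, adjusted p = 0.045). The Cyp2c11 and Cyp2c13 calls were lost without either animal, at estimates of -0.41 and -0.38 for Cyp2c11 and -0.18 and -0.17 for Cyp2c13, and that of Cyp2c23 without animal B (-0.20). Without background correction neither Cyp2c11 (-0.20) nor Cyp2c23 (-0.24) was called. Cyp2c23 also missed the threshold with the scanner's own log ratio (adjusted p = 0.068), the authors' series table and the animal as a block (adjusted p = 0.0502). Cyp2c13 was dim, with a net DMSO intensity of 38.3 to 127, and its estimate was -0.32 with the scanner's own log ratio and -0.04, not called, without background correction. With the furans none of the 3 was called, and all 6 estimates lay between -0.25 and -0.07.

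The female-predominant Cyp2c genes were not called in any group. With TCDD, Cyp2c12 was at -0.17 and -0.15 in animal A but at -1.04 and -0.997 in animal B, and the mean of -0.59 (SE 0.18) missed the threshold at an adjusted p of 0.061. Its values with TCDF and PeCDF were -0.01 and -0.14. Cyp2c7, a retinoid-metabolising enzyme, was at 0.02 with TCDD, -0.25 with TCDF and -0.28 with PeCDF on its brightest probe. The other 3 Cyp2c7 probes gave -0.18, -0.93 and -0.03 with TCDD, and the second brightest of the 4 passed the test over all probes there (-0.93, SE 0.24, adjusted p = 0.039), so the probes of this gene disagreed.

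No Cyp2d gene, the subfamily of debrisoquine-type hydroxylases, was called in any group. Cyp2d2 had the lowest estimate, -0.58 with 1 nM TCDD (SE 0.18, adjusted p = 0.071), which came from animal B at -1.11 and -0.88 while animal A was at -0.27 and -0.04. Cyp2d3, Cyp2d5 and Cyp2d4 were at -0.21, -0.08 and 0.12. With the 2 furans the 4 Cyp2d estimates lay between -0.07 and 0.15.

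Of the Cyp2j genes, which metabolise arachidonic acid, Cyp2j4 fell with TCDD and Cyp2j3 had the same estimate but was not called. Cyp2j4 was at -0.51 and -0.54 in animal A and -0.29 and -0.33 in animal B (estimate -0.42, SE 0.09, adjusted p = 0.011), below all untreated and lower-dose arrays, which spanned -0.09 to 0.39. The call was lost without animal A (-0.31, adjusted p = 0.14) and without background correction (-0.34). Cyp2j3 was at -0.76 in animal A and -0.08 in animal B, each the mean of 2 arrays, for a mean of -0.42 (SE 0.15, adjusted p = 0.11). A second, dimmer Cyp2j3 probe gave -0.32 and passed over all probes (adjusted p = 0.030). Neither gene was called with a furan.

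Among the other Cyp2 members, Cyp2e1, the ethanol-inducible enzyme, was at 0.06 with 1 nM TCDD (95% interval -0.09 to 0.21), at -0.18 with TCDF and at -0.17 with PeCDF. Its 4 arrays with TCDD were at 0.16 and 0.23 in animal A and at -0.12 and -0.04 in animal B. Cyp2f4, a naphthalene-oxidising lung enzyme, Cyp2g1, an enzyme of the nasal lining, and Cyp2t1 were not called in any group.

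Only Cyp3a18 of the 4 Cyp3a genes was called. This male-predominant steroid hydroxylase was at -0.60, -0.59, -0.85 and -0.77 with 1 nM TCDD, below the 16 untreated and lower-dose arrays, which spanned -0.16 to 0.39. The estimate was -0.70 (SE 0.07, adjusted p = 0.000165), and -0.36, still called, without background correction. With TCDF and PeCDF it was at -0.26 in both, which did not pass the test. Cyp3a23-3a1, the PXR target induced by dexamethasone, had a high signal and was at -0.08 with TCDD (95% interval -0.38 to 0.22), with 0.18 and 0.19 in animal A and -0.27 and -0.42 in animal B. The male-predominant Cyp3a2 was at -0.10 and the female-predominant Cyp3a9 at 0.03, both with dim probes (median net DMSO intensity 49 and 65.4).

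Among the Cyp4a genes, the fatty acid omega-hydroxylases induced through PPARA, 2 of 3 fell with 1 nM TCDD. Cyp4a8 was at -0.71 and -0.61 in animal A and -0.996 and -0.96 in animal B, for an estimate of -0.82 (SE 0.08, adjusted p = 0.00025). The 16 untreated and lower-dose arrays spanned -0.05 to 0.33, so no array overlapped. With TCDF the 4 values were -0.09, -0.22, -0.22 and -0.26 and with PeCDF 0.02, 0.09, -0.12 and -0.10, and neither estimate (-0.19 and -0.03) was called.

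Cyp4a3 gave ratios of -0.54, -0.81, -0.70 and -0.79 with TCDD (estimate -0.71, SE 0.10, adjusted p = 0.0011), again below all 16 untreated and lower-dose arrays, of which the lowest was -0.04. The estimates with TCDF and PeCDF were -0.29 and -0.18 and were not called. Cyp4a1 was not called, at -0.12 with TCDD (95% interval -0.44 to 0.20) and -0.22 and -0.24 with the furans. Its arrays with TCDD were at -0.18 and -0.35 in animal A and at 0.12 and -0.08 in animal B.

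Cyp4f4, which hydroxylates leukotrienes and related eicosanoids, had the lowest mean ratio of the 35 genes. At 1 nM TCDD it was at -0.91 and -0.98 in animal A and at -1.26 and -1.27 in animal B. With 10 nM TCDF its values were -0.55, -0.72, -0.56 and -0.60, and with 2 nM PeCDF -0.38, -0.50, -0.35 and -0.45. The 3 groups did not overlap each other, nor the 16 untreated and lower-dose arrays, which spanned -0.07 to 0.29. The estimates were -1.11 (SE 0.08, 0.465 of the DMSO level, adjusted p = 2.2e-05), -0.61 (adjusted p = 0.0042) and -0.42 (adjusted p = 0.014). Single-animal fits kept the TCDD call (-0.95 and -1.26) and lost the TCDF call without animal A and the PeCDF call without either animal.

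The other 3 Cyp4f genes did not follow it with TCDD: Cyp4f1 was at -0.03, Cyp4f5 at 0.01 and Cyp4f6 at -0.08. Cyp4f1, a leukotriene hydroxylase, was called lower with 2 nM PeCDF alone (-0.29, SE 0.07, adjusted p = 0.045). It is named outside the rule for named genes because one of its 4 arrays there had a marked spot. The estimate therefore came from animal A alone, at -0.23 and -0.34, and its SE from the spread in the other groups, the remaining array of animal B was at -0.02, and the call was lost when the marked spot was kept (-0.18). Cyp4b1 and Cyp4x1, genes of lung and brain, were near the negative controls and were not called.

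**Figure D3:**
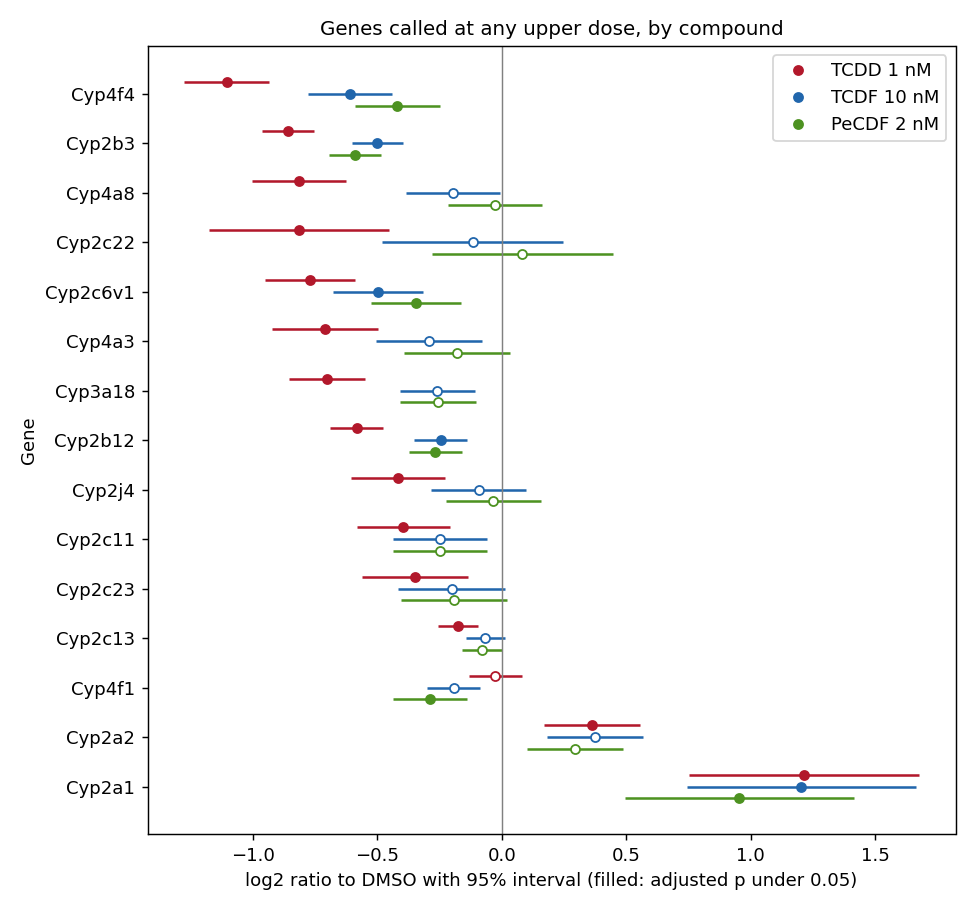
Estimates of the log2 ratio to DMSO (x axis, points) with 95% intervals (lines) at 1 nM TCDD, 10 nM TCDF and 2 nM PeCDF for the 15 genes called in at least 1 of them (y axis); filled points have an adjusted p under 0.05. The genes were chosen by these calls, so their order by compound is partly set by the choice; the Cyp2a1 intervals of the 3 compounds overlap, and the Cyp4f1 point for PeCDF rests on animal A alone.

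Grouped by sex pattern, 3 of the 5 male-predominant genes fell with 1 nM TCDD (Cyp2c11, Cyp2c13 and Cyp3a18), Cyp2a2 rose and Cyp3a2 was not called. Over all gene names 5.92% were called lower there and 4.63% higher. In these cells of female rats the median net DMSO intensity of the 5 genes ran from 49 for Cyp3a2 to 371 for Cyp3a18. The Cyp2c11, Cyp2c13 and Cyp2a2 calls were lost without background correction and without either animal. Of the 4 female-predominant genes only Cyp2a1 was called. Of 6 members listed as CAR or PXR targets, Cyp2c6v1 and Cyp3a18 fell with TCDD, and Cyp2c7, Cyp3a2, Cyp3a9 and Cyp3a23-3a1 were not called. The list was matched on present symbols, so Cyp2b12, whose array name Cyp2b15 is on it, was left out, and it fell with TCDD (-0.58). Cyp2b2 is also on the list but is no member, and its lower values are given above. None of the 6 members known mainly from other tissues (Cyp2a3, Cyp2f4, Cyp2g1, Cyp2t1, Cyp4b1 and Cyp4x1) was called in any group, with TCDD estimates between -0.17 and 0.16.

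At the lower doses, and in untreated hepatocytes, no member was called by limma, with 0.451% of all gene names called at 0.01 nM TCDD, 0.00287% at 0.1 nM TCDF, 0% at 0.02 nM PeCDF and 0.043% in untreated cells. At an unadjusted p under 0.05 there were 9 members with TCDD, 1 with TCDF, 4 with PeCDF and 7 in untreated cells, where 10.5%, 7.62%, 7.61% and 10.7% of all gene names passed. In untreated cells 13 members were higher than DMSO on all 4 arrays, where 11% of all gene names were, and 1 was lower, where 9.79% were. The estimates there ran from -0.10 to 0.26 with a median of 0.07, and the highest was that of Cyp3a23-3a1, at 0.47 and 0.42 in animal A and 0.14 and 0.01 in animal B (adjusted p = 0.55).

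The step from the lower to the upper dose was tested directly. For TCDD, 0.01 to 1 nM, 9 members fell and none rose, where 3.74% of all gene names were called and 2.34% called lower. Cyp4f4 fell by 1.21 on the log2 scale (SE 0.11, adjusted p = 0.00033) and Cyp4a3 fell by 1.06 (SE 0.14, adjusted p = 0.0023), from 0.35 at 0.01 nM. Cyp2c22 fell by 0.995, Cyp4a8 by 0.97, Cyp2b3 by 0.74, Cyp2c6v1 by 0.71, Cyp3a18 by 0.67, Cyp2j4 by 0.53 and Cyp2b12 by 0.47. The arrays of the 2 doses did not overlap for any of these 9, which were chosen by a call on the same arrays. Over all 35 members there was no overlap for 17, of which 15 were lower and 2 higher. That share was not computed over all gene names, so this count is not read as a result about the members. With the animal as a block 7 were called, without Cyp2c22 and Cyp2j4 (adjusted p = 0.0513 for each), where 4.23% of all gene names were. Those 2 steps were also lost with the scanner's own log ratio, without background correction, in the session fitted alone and without animal B, and that of Cyp2j4 without animal A. The steps of Cyp2b12 (without animal A), Cyp2c6v1 and Cyp4a3 (both without animal B) were lost in a single-animal fit and that of Cyp3a18 in the session fitted alone.

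For the furan steps, 0.1 to 10 nM TCDF and 0.02 to 2 nM PeCDF, Cyp2b3 was the only member called, where 0.089% and 0.0833% of all gene names were called, 0.0718% and 0.0574% lower. It fell by 0.49 in both (SE 0.07, adjusted p = 0.033 and 0.031). No member was called for the TCDF step without either animal, nor for the PeCDF step without animal A, and 2 were called for the TCDF step with the animal as a block, where 0.118% of all gene names were. The step of Cyp2a1 was 0.97 with TCDD, 1.09 with TCDF and 0.85 with PeCDF and passed in none, with an SE of 0.29. Its lower-dose arrays were split by animal: with 0.1 nM TCDF both arrays of animal A were at -0.23 and those of animal B at 0.47 and 0.46.

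The upper doses were compared with each other, although they differ in nM (1, 10 and 2) and the labels do not say that they are of equal potency. TCDD and TCDF carry chlorine at the same ring positions on a dioxin and a furan frame, and PeCDF has 1 more chlorine than TCDF. Over all 35 genes the median difference was -0.10 for TCDD against either furan, with differences from -0.70 to 0.27 against TCDF and from -0.90 to 0.30 against PeCDF. Against PeCDF, 2 of the differences passed the test, where 0.847% of all gene names did and 0.399% were lower: Cyp4a8 by -0.79 (SE 0.12, 95% interval -1.06 to -0.52, adjusted p = 0.024) and Cyp4f4 by -0.69 (SE 0.11, 95% interval -0.93 to -0.45, adjusted p = 0.027). Both calls were lost with the scanner's own log ratio, with the authors' series table and without animal B, where Cyp4f4 was at -0.50 and Cyp4a8 at -0.71. The Cyp4f4 call was also lost without background correction. With the animal as a block 5 members were called against PeCDF and 1 against TCDF, where 1.23% and 0.103% of all gene names were.

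Against 10 nM TCDF no member passed by limma, where 0.0631% of all gene names did, although 14 had an unadjusted p under 0.05, as 12% of all gene names did. Without animal A 2 passed the adjusted test, with 1.94% of all gene names. Cyp4a8 differed by -0.62 (95% interval -0.89 to -0.35, adjusted p = 0.10) and Cyp2b3 by -0.36 (95% interval -0.51 to -0.21, adjusted p = 0.092). For Cyp2a1 the difference between TCDD and TCDF was 0.01, with a 95% interval of -0.64 to 0.66, so a difference of a size seen for other genes was within it. Between TCDF and PeCDF no member passed (0% of all gene names), and none had an unadjusted p under 0.05, which 2.84% of all gene names had. The 95% intervals of that difference were -0.06 to 0.24 for Cyp2b3, -0.43 to 0.05 for Cyp4f4 and -0.40 to 0.90 for Cyp2a1.

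**Figure D4:**
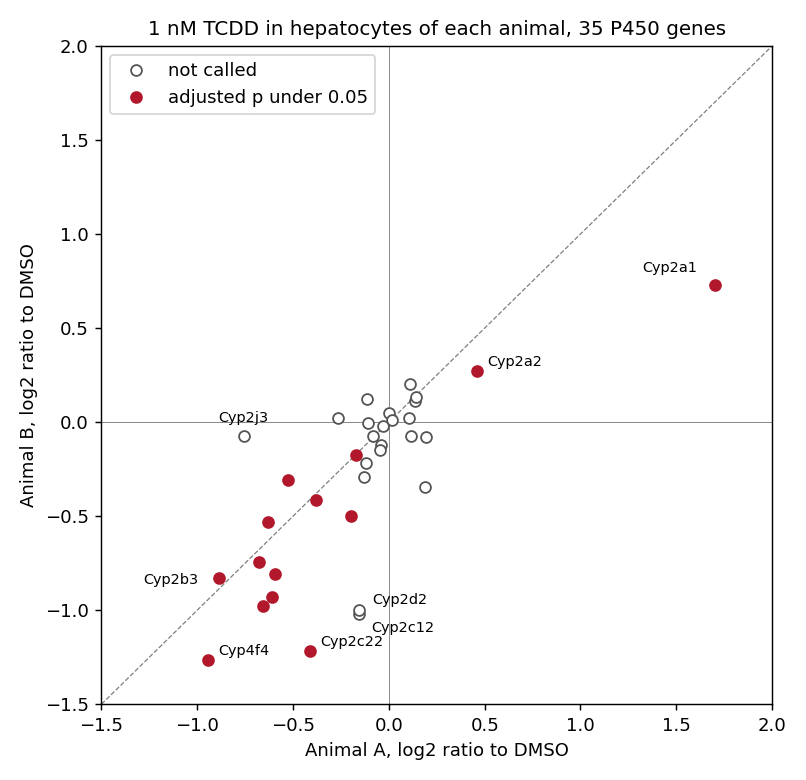
Log2 ratio to DMSO with 1 nM TCDD in hepatocytes of animal A (x axis) and animal B (y axis) for the 35 genes, each the mean of 2 dye-swapped arrays; filled points have an adjusted p under 0.05 and the dashed line marks equal values. All 14 called genes have the same sign in both animals, and Cyp2a1, Cyp2c22, Cyp2c12, Cyp2d2 and Cyp2j3 lie far from the line.

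The animals differed by over 0.5 on the log2 scale for 6 members with 1 nM TCDD and for none with the upper doses of the furans. Animal A was further from 0 for Cyp2a1 and Cyp2j3. Animal B was lower for Cyp2c22, Cyp2c12 and Cyp2d2, by 0.80, 0.86 and 0.84, and for Cyp3a23-3a1 by 0.53, where the animals had opposite signs. Of these 6, only Cyp2a1 and Cyp2c22 were called. Gaps of this size were also seen at the lower furan doses, where no member was called. Animal A minus animal B was -0.70 for Cyp2a1 and -0.65 for Cyp2d2 at 0.1 nM TCDF. At 0.02 nM PeCDF it was 0.61 for Cyp4a1 and 0.57 for Cyp2j3. The share of such gaps over all gene names was not computed.

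Related genes give the setting of these values. At 1 nM TCDD 5.92% of all gene names were called lower and 4.63% higher. Of 17 measured genes of other P450 families outside Cyp1, 5 fell with 1 nM TCDD, among them Cyp7a1, which starts bile acid synthesis, at -2.05 (SE 0.35), Cyp17a1, a steroid hydroxylase, at -0.96 and Cyp8b1, of bile acid synthesis, at -0.96. Their median was -0.02. Of 21 genes of electron transfer and heme supply, 3 rose and 5 fell. Por, the reductase that feeds microsomal P450s, was at -0.47 (SE 0.09, adjusted p = 0.0071) with TCDD, -0.26 with TCDF and 0.05 with PeCDF, neither furan value passing. Cytochrome b5 (Cyb5a) rose in all 3 groups, by 0.38, 0.60 and 0.57, and Alad, of heme synthesis, was called lower in all 3, at -0.34, -0.39 and -0.52.

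Among 32 measured regulators of P450 genes, 1 rose and 8 fell with TCDD, with a median of -0.04. The shares of all gene names there were 4.63% higher and 5.92% lower. The PXR gene Nr1i2 was called lower in all 3 groups, at -0.66 (SE 0.05, adjusted p = 3.1e-05), -0.35 and -0.28, and the CAR gene Nr1i3 was at -0.29, 0.08 and 0.27, none of which passed. Onecut1, a liver transcription factor, was at -1.49, -1.14 and -1.30 and Foxa1, another, at -0.91, -0.52 and -0.46, all called. Ppara was at -0.01, -0.03 and -0.02 and Ahr at 0.04, -0.05 and 0.02, with no call.

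Of 16 measured CAR and PXR targets that are no P450, 6 fell and 1 rose with TCDD (median -0.24). The shares of all gene names there were 5.92% lower and 4.63% higher. The glucuronosyltransferase Ugt1a1 was at -1.56, the sulfotransferase Sult2a6 at -0.97 and the transporter Slco1a4 at -0.80, while the transporter Abcb1a rose by 0.51. Of 24 PPARA targets that are no P450, 16 fell and none rose with TCDD (median -0.38), 4 fell with TCDF and 7 with PeCDF. The shares of all gene names called lower with TCDF and PeCDF were 1.26% and 2.67%. Angptl4, an inhibitor of lipoprotein lipase, was at -1.46, -0.72 and -0.50 in the 3 groups, all called.

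The array holds 8 more genes of families 2 to 4 under locus numbers. At 1 nM TCDD 2 of these fell, the Cyp2b2 and Cyp2b21 values given above, and the other 6 (Cyp2j10, Cyp2r1, Cyp2s1, Cyp2u1, Cyp2w1 and Cyp4f39) were not called. Over all gene names 5.92% were called lower there. The median of these 8 genes was -0.12, as was that of the 35 members.

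**Figure D5:**
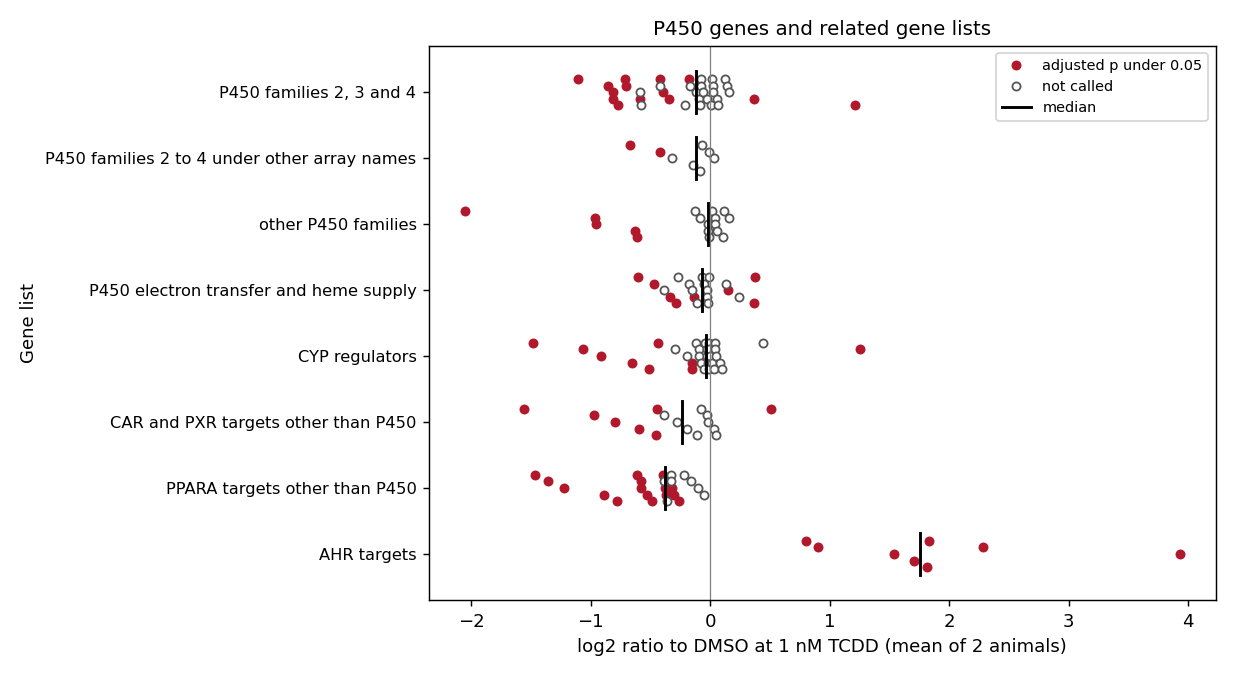
Log2 ratio to DMSO with 1 nM TCDD (x axis) of the 35 P450 genes and of the genes in 7 related lists (y axis), each point 1 gene as the mean of 2 animals, filled where the adjusted p is under 0.05, with the list's median as a bar. The medians run from -0.38 for PPARA targets to 1.76 for AHR targets and lie at -0.12 for the P450 genes of families 2, 3 and 4.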

How the data were processed

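Per the labels, RNA of 14 treated or untreated preparations was set against DMSO RNA of the same animal on 28 two-colour Agilent arrays of 41012 probes. The deposited scanner files hold spot intensity, and the authors' deposited series table and the files hold log10 ratios. Feature Extraction was version A.7.5.1 per the file headers and 9.1 per the submitters' processing notes. Foreground and background intensity were corrected with normexp (offset 50) and loess-normalised within each array, spots with outlier flags were left out, ratios were turned to sample over DMSO, and each dye-swapped pair was averaged. The 14 animal-level log2 ratios were fitted with limma 3.58.1 in R 4.3.3, as group means with 13 comparisons. The Benjamini-Hochberg adjustment was over all 34849 gene names, and genes were called at an adjusted p under 0.05. This fit alone was also run on simulated, independent animal-level ratios, which left out the processing before it. Probes had to carry the scanner's mark for signal over background throughout a group's 4 arrays, or in 14 or more DMSO channels. The mark is lenient, so a filter on the 95th percentile of 314 negative control spots was added after seeing the data. The number of animals limits the precision. Each p-value rests on a moderated spread of the gene, shared over the differences between the 2 animals in all 7 groups. The 14 ratios were treated as independent, although the same 2 animals supplied every group.

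The members and lists were chosen with earlier results of these data known. Named with every array's value were members called against DMSO with the same sign on all 4 arrays. Replicate letters mark the same animal in each group, and the A minus B differences of the groups correlated at -0.39 to 0.56 over 21 pairs of groups. Promoter windows and present symbols are from RefSeq (GRCr8), and windows were aligned with Biopython 1.88. No table of protein sequences was used here.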

Additional observations from a re-analysis of the deposited data

Results flagged for a closer look

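With the reported settings, the responses of 2 genes differed between compounds by a test of the difference itself. Cyp4f4 was lower with 1 nM TCDD than with 2 nM PeCDF by -0.69 on the log2 scale, and Cyp4a8 by -0.79, with no overlap between the 4 arrays of each group. Both calls were lost with the scanner's own log ratio, with the authors' series table and without animal B. The Cyp4f4 call was also lost without background correction. The groups also differ in dose and in extraction session, and the part of either was not tested.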

How the results depend on the processing

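Besides the reported settings, 13 alternatives were run, 1 of them chosen after seeing the data, and none of the called member values reversed in any that gave a value. At 1 nM TCDD 14 members were called, and between 9 (without background correction) and 20 (array-level fit with extraction day as a block) otherwise. Cyp2b3, Cyp4f4, Cyp4a8, Cyp2b12, Cyp2c6v1, Cyp4a3 and Cyp3a18 were called there under all 13, and Cyp2b3 was called at the 3 upper doses under all 13. The array-level fit treats dye-swapped arrays of 1 animal as separate samples linked by an estimated correlation and gave 1 call in untreated cells, 4 at 0.01 nM TCDD, 12 at 10 nM TCDF, 1 at 0.02 nM PeCDF, 12 at 2 nM PeCDF, 15, 6 and 7 for the TCDD, TCDF and PeCDF steps, and 13 for TCDD against either furan. The scanner's log ratio and the authors' series table both gave 0 calls for the furan steps and 0 for TCDD against PeCDF. Without background correction there were 3 calls at 2 nM PeCDF, 0 for the furan steps and 1 for TCDD against PeCDF. The shares of all gene names called under these settings are not given here. The counts are therefore not read as results about the members.

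With the replicate block (the animal), 14 members were called at 1 nM TCDD, 2 for the TCDF step, 1 for TCDD against TCDF and 5 for TCDD against PeCDF; among members named in the report it ended the Cyp2c23 call and the Cyp2c22 and Cyp2j4 dose steps and no other call. Single-animal fits, in which the lone animal is assumed to vary like the other groups, gave 10 to 11 calls at 1 nM TCDD, 1 to 2 at 10 nM TCDF, 1 to 2 at 2 nM PeCDF, 0 to 1 in untreated cells, 0 to 1 at 0.01 nM TCDD, 6 to 7 for the TCDD step, 0 for the TCDF step, 0 to 1 for the PeCDF step, 0 to 2 for TCDD against TCDF and 0 to 3 for TCDD against PeCDF. The cause of these differences was not tested. Signal limits the dim genes: 28 of 35 members were above the negative controls in all 56 channels. Cyp4b1, Cyp4x1, Cyp2a2, Cyp2a3, Cyp2g1, Cyp3a2 and Cyp4f5 were not.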
